A study of Homo sapiens with 11 samples.

Results

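The genes described here are 10 loci of the Hippo pathway: the coactivators YAP1 and WWTR1 (also called TAZ), the DNA-binding factors TEAD1, TEAD2, TEAD3 and TEAD4, and the genes CCN1, CCN2, AMOTL2 and LATS2, which YAP and TEAD are known to activate. Each locus is the RefSeq gene on GRCh38 with 50 kb either side, and the 10 are among 20033 protein-coding genes treated in the same way. The data are chromatin immunoprecipitation sequencing (ChIP-seq) peak lists from 92-1, an established human uveal melanoma cell line, kept for 4 h in the solvent DMSO or in FHT-1015, which blocks SMARCA4 and SMARCA2, the ATPases that drive the BAF chromatin remodelling complex. Antibodies were against H3K27ac, a histone mark of active promoters and enhancers, against SMARCA4 itself, and against the transcription factors MITF, TFAP2A and SOX10. Each of the 5 antibodies had 1 library in DMSO and 1 in FHT-1015, and 1 DMSO input library without a list was not used for counts. The dose of FHT-1015 is not given in the sources used here.

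In the Hippo pathway a kinase cascade that ends in the LATS kinases phosphorylates YAP and TAZ and keeps them out of the nucleus. When the cascade is off, YAP and TAZ enter the nucleus, bind TEAD factors on DNA and raise transcription of genes such as CCN1 and CCN2, which encode secreted matrix proteins, AMOTL2, an angiomotin family protein that holds YAP in the cytoplasm, and LATS2, one of the inhibiting kinases. In uveal melanoma the pathway is best known because mutant Gq proteins activate YAP.

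With 1 library per antibody and condition there is no replicate check, so no p-value is given and every comparison is between 2 libraries. Intervals are 95% Wilson or exact binomial intervals over peaks and cover counting error only. A DMSO peak counts as retained when it overlaps, by at least 1 bp, a peak called for that antibody in FHT-1015, and as lost otherwise. The lists go down to a −log10 p of about 2, so a peak that is absent may lie just under that limit. Fold enrichment and −log10 p of a peak are the authors' values, and a strong peak here is one with −log10 p of at least 10. Reads at a peak's summit were recovered from those values, and a height ratio is the summit reads in FHT-1015 over those in DMSO after each was divided by its library's depth. The depth of the FHT-1015 library over that of the DMSO library was 1.15 for SOX10, 1.05 for H3K27ac, 0.960 for TFAP2A, 0.918 for SMARCA4 and 0.854 for MITF. All 7 melanocyte genes checked (MITF, SOX10, PMEL, MLANA, TYR, DCT and TYRP1) had a start peak of every antibody in DMSO. Of all coding genes, between 46.1% (MITF) and 68.4% (TFAP2A) had a start peak of a given antibody in DMSO. In FHT-1015 a TFAP2A start peak was found at 5 of the 7 and a SOX10 start peak at 4, against 68.6% and 40.5% of genes. The other antibodies had one at all 7.

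The promoters that the results below return to are shown here, each as the 250 bases before a RefSeq start (GRCh38.p14), written 5′ to 3′ on the gene's strand. They belong to the target genes and to the TEAD genes whose start carried a SOX10 peak in DMSO, and RefSeq entries were matched for 7 of the 10 genes. The number shown was limited, and the upper TEAD2 start, which also carried a SOX10 peak in DMSO, is left out. Capitals mark matches on either strand to GGAATG, the core that TEAD factors bind, GCCNNNGGC for AP-2 factors such as TFAP2A, CACGTG or CATGTG for MITF, ACAANG for SOX factors and TGANTCA for AP-1.
CCN2 at chr6:131951373-131951622, strand -: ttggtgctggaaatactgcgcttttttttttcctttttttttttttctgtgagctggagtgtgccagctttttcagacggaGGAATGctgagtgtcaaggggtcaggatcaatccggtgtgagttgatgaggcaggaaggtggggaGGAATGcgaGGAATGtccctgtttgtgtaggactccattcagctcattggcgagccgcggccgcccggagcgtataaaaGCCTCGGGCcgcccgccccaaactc
AMOTL2 upper start at chr3:134375418-134375667, strand -: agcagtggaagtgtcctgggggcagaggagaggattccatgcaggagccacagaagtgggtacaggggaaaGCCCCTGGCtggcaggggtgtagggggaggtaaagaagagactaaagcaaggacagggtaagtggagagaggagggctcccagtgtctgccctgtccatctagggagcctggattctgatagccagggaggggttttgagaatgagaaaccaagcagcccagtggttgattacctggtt
AMOTL2 lower start at chr3:134374448-134374697, strand -: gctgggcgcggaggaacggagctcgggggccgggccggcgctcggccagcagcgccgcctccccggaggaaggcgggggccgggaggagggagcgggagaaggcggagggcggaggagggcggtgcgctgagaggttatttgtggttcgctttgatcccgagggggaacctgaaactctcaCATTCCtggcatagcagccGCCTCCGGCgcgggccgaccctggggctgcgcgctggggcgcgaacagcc
LATS2 at chr13:21061587-21061836, strand -: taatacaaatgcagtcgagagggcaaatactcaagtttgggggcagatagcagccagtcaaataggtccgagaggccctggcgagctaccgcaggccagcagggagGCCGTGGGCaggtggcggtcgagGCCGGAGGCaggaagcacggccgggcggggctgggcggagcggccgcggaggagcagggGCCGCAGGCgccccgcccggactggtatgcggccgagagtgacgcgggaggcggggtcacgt
TEAD2 lower start at chr19:49361518-49361767, strand -: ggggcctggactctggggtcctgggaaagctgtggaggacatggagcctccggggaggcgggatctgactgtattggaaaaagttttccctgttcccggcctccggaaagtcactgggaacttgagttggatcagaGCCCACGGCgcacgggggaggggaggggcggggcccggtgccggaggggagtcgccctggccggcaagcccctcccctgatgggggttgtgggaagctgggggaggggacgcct
TEAD3 at chr6:35497080-35497329, strand -: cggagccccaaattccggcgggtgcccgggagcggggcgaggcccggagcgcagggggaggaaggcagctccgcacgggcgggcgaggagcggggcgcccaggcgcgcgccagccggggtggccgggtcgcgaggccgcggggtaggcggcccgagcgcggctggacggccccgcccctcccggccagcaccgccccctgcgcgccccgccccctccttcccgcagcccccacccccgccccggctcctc

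CCN2 had 3 copies of GGAATG, which begin 169, 104 and 95 bases before the start, and a GCCNNNGGC match that begins 25 bases before it. At the lower start of AMOTL2 a reverse match, CATTCC, began 69 bases before the start and a GCCNNNGGC match 50 bases before it, while the upper start had the GCCNNNGGC match alone. LATS2 held 3 GCCNNNGGC matches before its start, a CACGTG that spans the start from 5 bases before it, and a GGAATG 10 bases into the transcript. TEAD3 held no match to any of the motifs. Over the 300 bases of a promoter entry, from 250 before to 50 after a start, GGAATG was present in 4 of the 10 entries of the 7 genes against 12.2% of 22198 promoters of coding genes. GCCNNNGGC was present in 7 of 10 against 27.3%, CACGTG or CATGTG in 3 against 16.5%, ACAANG in 5 against 30.8% and TGANTCA in none against 6.15%. These letters were searched as text, some matches of different motifs may share bases, and a match is not a binding site.

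SOX10, the neural crest factor on which melanocytes depend, had fewer peaks after FHT-1015 at 9 of the 10 loci, and the covered length was smaller at all 10. Peaks of SOX10 at the loci together numbered 136 in DMSO and 65 in FHT-1015, a ratio of 0.478 (0.350 to 0.647). Of the 136, 38 were retained (27.9%, 21.1 to 36.0), against 18.3% of 103305 peaks in the whole list. SOX10 peaks were at most 0.5 times as many, called halved here, at 6 of the 9 members with at least 5 DMSO peaks, against 73.7% of 14284 coding-gene loci. The halving at the members was thus no more frequent than elsewhere, and in the gene bodies without flanks it held for 2 of 6. In covered length 5 of the 9 were halved, against 88.2%. Of 55 strong SOX10 peaks 27 were retained, against 33% of all strong SOX10 peaks. None of the 9 was doubled, against 0.042% of loci. TEAD1 went from 33 peaks to 5, TEAD4 from 14 to 3, TEAD2 from 9 to 3, CCN2 from 7 to 1, AMOTL2 from 11 to 5 and LATS2 from 8 to 4.

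The SOX10 covered length that was kept varied widely among the members. WWTR1 kept 0.679 of its SOX10 covered length and YAP1 0.632, and only 3.13% and 4.34% of all loci were at or above these ratios. LATS2 kept 0.569 and TEAD3 0.507, with 7.10% and 11.2% of loci at or above. At the other end, CCN2 kept 0.116, TEAD4 and TEAD1 0.128 each, TEAD2 0.204 and AMOTL2 0.272. For CCN2, TEAD4 and TEAD1 between 19.8% and 22.4% of loci were at or below, so these losses lie within the common range of the genome.

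**Figure D1:**
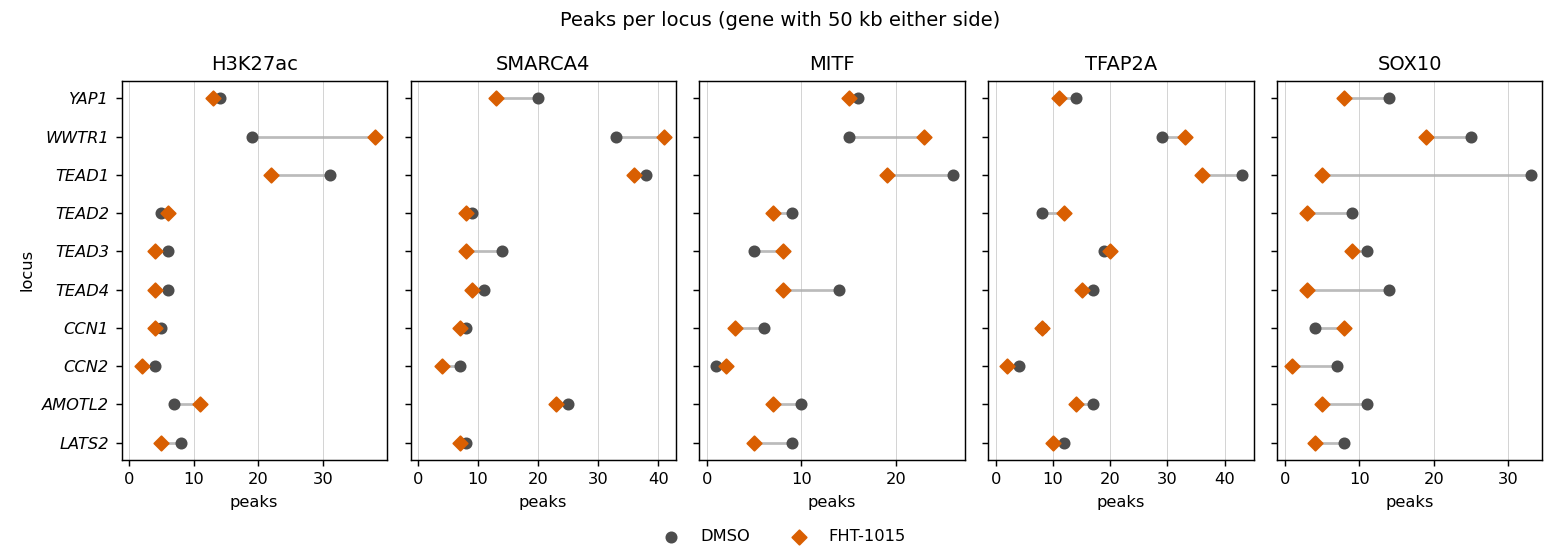
Number of peaks per locus (x axis) for each of the 10 loci (rows) and 5 antibodies (panels), with DMSO as grey circles and FHT-1015 as orange diamonds, 1 library each. SOX10 at TEAD1 shows the widest drop, from 33 to 5 peaks, and H3K27ac at WWTR1 the widest gain, from 19 to 38.

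H3K27ac had nearly the same total in both conditions across the 10 loci. They held 105 peaks in DMSO and 109 in FHT-1015, a ratio of 1.04 (0.787 to 1.37), and the covered length was 0.987 of that in DMSO, against 0.706 for the number and 0.764 for the length over all peaks. WWTR1 carries much of this: the other 9 loci held 86 peaks in DMSO and 71 in FHT-1015, a ratio of 0.826, with 0.870 of the covered length. Of the 105 DMSO peaks 79 were retained (75.2%, 66.2 to 82.5) against 59.3% of all peaks, and of the 56 strong ones 53 were retained against 87.6%. None of the 9 members with at least 5 DMSO peaks was halved in H3K27ac peak number, against 23.5% of 10818 loci, and WWTR1 was the 1 doubled, against 0.24%. CCN2, with too few peaks for this count, had 4 in DMSO and 2 in FHT-1015, with 0.433 of the covered length.

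SMARCA4 itself was still found at the loci in the presence of its inhibitor. Its peaks numbered 173 in DMSO and 156 in FHT-1015, 98 of 173 were retained (56.6%, 49.2 to 63.8, against 52% of all peaks), and 30 of the 31 strong peaks were retained against 85.2%. The covered length was larger at 8 of 10 members and 1.18 times that in DMSO in total, against 1.00 over all peaks. Counted by locus, the median length ratio was 1.16 over the members and 1.13 over 13165 coding-gene loci. The members were thus close to other loci. No member was halved or doubled in SMARCA4 peak number, against 8.55% and 1.42% of loci. Among strong peaks alone the SMARCA4 number was higher in FHT-1015, with 44 peaks against 31, and no such count over the whole lists is given here.

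TFAP2A and MITF lay between SOX10 and H3K27ac. TFAP2A had 171 peaks in DMSO and 161 in FHT-1015, with 104 retained (60.8%, 53.3 to 67.8, against 54.9%), and none of the 9 members with at least 5 DMSO peaks was halved or doubled, against 10% and 1.13% of loci. CCN2, again below that number, had 4 TFAP2A peaks in DMSO and 2 in FHT-1015, with 0.446 of the covered length. Of the 93 strong TFAP2A peaks 72 were retained, against 71.5% of all strong ones. MITF, the melanocyte lineage factor, had 111 peaks in DMSO and 97 in FHT-1015, with 48 retained (43.2%, 34.4 to 52.5, against 36.2%). The MITF number ratio was 0.874 (0.659 to 1.16) at the loci, against 1.04 over all peaks. Among peaks with q under 0.05 it was 0.689 at the loci. Such peaks made up 61.1% of the MITF list in FHT-1015 and 89.7% in DMSO. CCN1 was the 1 of 9 members tested that was halved in MITF peak number, from 6 to 3, against 14.6% of loci, and none of the 9 was doubled, against 1.86%. With 100 kb either side no member was halved for MITF, and among peaks with q under 0.05 in both lists 3 of 9 were. Of the 43 strong MITF peaks 32 were retained, against 61.7%. In covered length CCN1 and TEAD4 were halved, at 0.362 and 0.478, against 16.7% of loci.

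**Figure D2:**
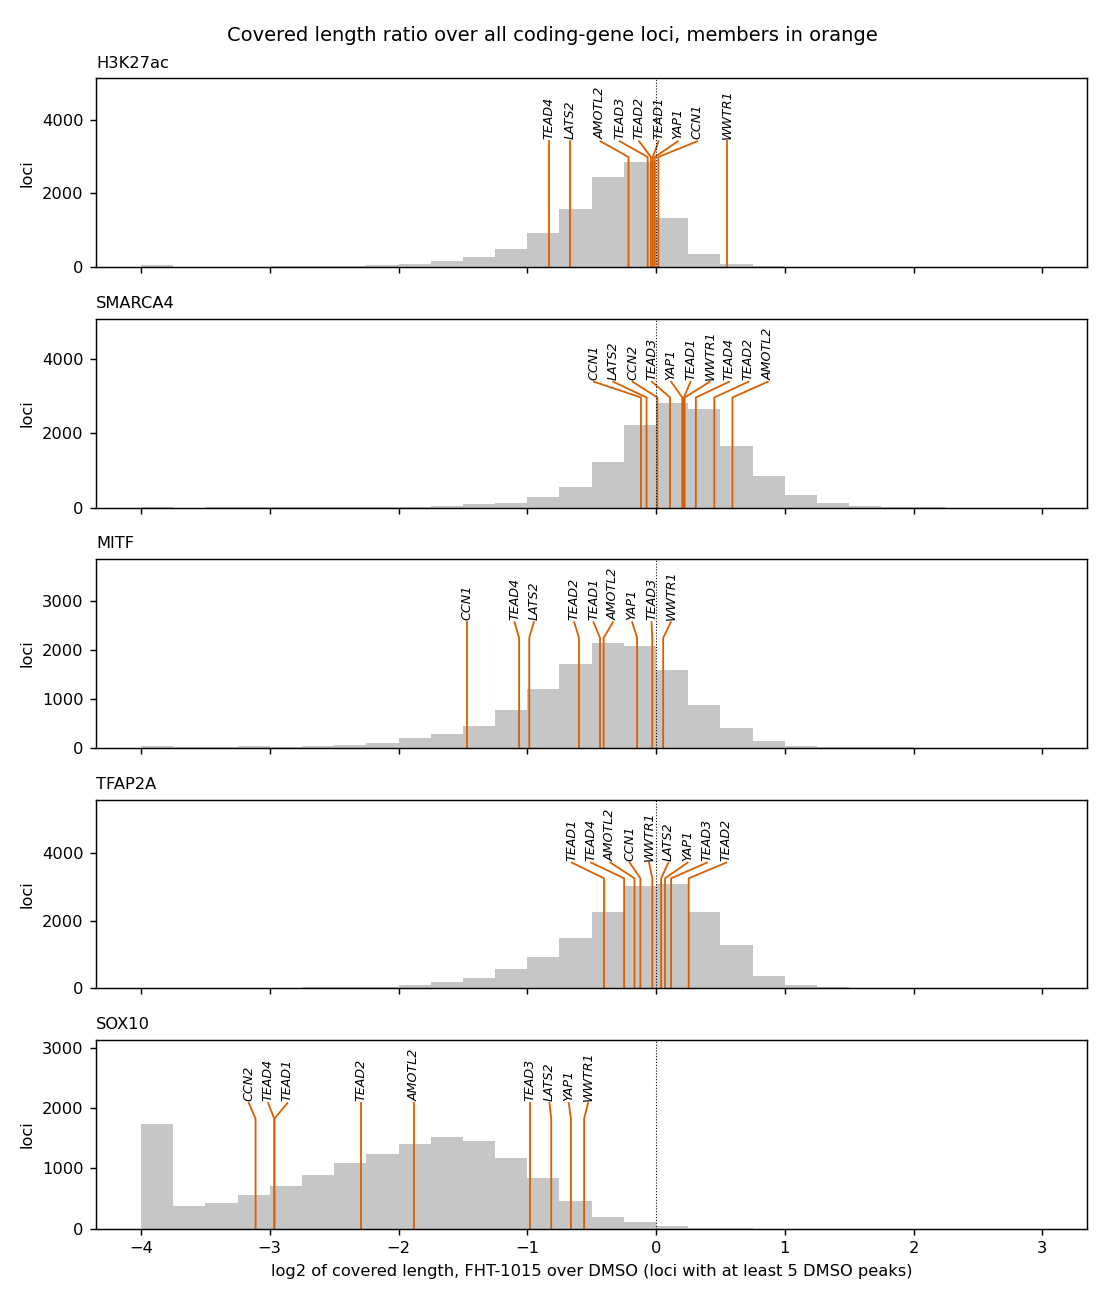
Histograms of log2 of the covered length in FHT-1015 over that in DMSO for all coding-gene loci with at least 5 DMSO peaks of the antibody (y axis, number of loci), with ratios of 0.0625 or less in the leftmost bar. Orange lines mark the members: WWTR1 lies at the right edge for H3K27ac (ratio 1.47), and for SOX10 the members spread from CCN2 (0.116) to WWTR1 (0.679).

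WWTR1 encodes the coactivator TAZ and lies at chr3:149517235-149724788. It had 19 H3K27ac peaks covering 27081 bp in DMSO and 38 covering 39764 bp in FHT-1015. This is 1.47 times the covered length, and 0.804% of loci were at or above that ratio. Of the 19 DMSO peaks 17 were retained, and 26 of the 38 FHT-1015 peaks had no DMSO counterpart. In the whole H3K27ac list 9514 of 48053 FHT-1015 peaks had none. Of the 26 at WWTR1, 22 lay inside the gene, 20 had q under 0.05 and 3 were strong. They were narrow and low, between 198 and 1240 bp wide with a median of 298.5, with 7 to 35 summit reads and a median of 13. They covered 9867 bp in all. SOX10 peaks overlapped 2 of the 26 in DMSO and 2 in FHT-1015, MITF none and 1, SMARCA4 3 and none, and TFAP2A 4 and 3. Such overlaps over the whole lists are not given here. The peak number was doubled in the whole locus only just, since the ratio was 1.83 in the gene body alone and 1.82 with 100 kb either side, and 1.38 among strong peaks, with 8 in DMSO and 11 in FHT-1015.

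The large H3K27ac domains inside WWTR1 were also higher. The strongest, at chr3:149591736-149595451, had 191 summit reads in DMSO and 287 in FHT-1015 (height ratio 1.43), with SOX10 at 98 and 111 (0.989), TFAP2A at 50 and 64 (1.33), MITF at 48 and 49 (1.19) and SMARCA4 at 44 and 37 (0.916). Another, at chr3:149636730-149641593, had 190 H3K27ac reads in DMSO and 252 in FHT-1015, with SOX10 at 118 and 111 and MITF at 89 and 79. At chr3:149575003-149578810 TFAP2A and SOX10 were lower. TFAP2A had 169 summit reads in DMSO and 54 in FHT-1015 (0.333) and SOX10 104 and 24 (0.202). H3K27ac had 102 reads there in DMSO. In FHT-1015 1 H3K27ac peak of 8366 bp spanned this site and the next. Its summit of 243 reads lay 6000 bp from the DMSO summit, outside this site, so the mark's heights are not compared here.

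Neither annotated WWTR1 start had an H3K27ac peak within 1 kb in either condition. The nearest H3K27ac peak to the start at position 149703273 was 48.7 kb away in DMSO and 13.7 kb away in FHT-1015, and for the start at 149658025 the distances were 16.4 and 9.93 kb. WWTR1 was the 1 member without a start peak of any antibody in DMSO. TM4SF4, COMMD2 and ANKUB1 share the WWTR1 window, so a peak outside the gene need not belong to WWTR1.

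YAP1, at chr11:102110447-102233424, kept its H3K27ac in length, with 14 peaks and 19299 bp in DMSO and 13 peaks and 19166 bp in FHT-1015. It had 5 sites that all 5 antibodies shared in DMSO, all touching the gene. At the start the H3K27ac summit had 167 reads in DMSO and 232 in FHT-1015 (height ratio 1.32), SMARCA4 33 and 52 (1.72), TFAP2A 90 and 114 (1.32) and MITF 107 and 102 (1.12). The TFAP2A summits lay 825 bp apart. The SOX10 start peak with the highest −log10 p had 41 reads in DMSO and 35 in FHT-1015, but these peaks did not overlap. By summit reads the top SOX10 peaks of this site had 48 and 35 and did overlap, with summits 3 bp apart (0.637). Inside the gene, chr11:102137908-102140303 had 53 H3K27ac reads in DMSO and 115 in FHT-1015 (2.07) and 14 and 34 of SMARCA4 (2.65). The SMARCA4 summits there lay 889 bp apart. The strongest YAP1 peaks of SMARCA4, MITF and SOX10 shared chr11:102154451-102158804, where SOX10 had 176 reads in DMSO and 98 in FHT-1015 (0.486), MITF 153 and 101 (0.773) and H3K27ac 103 and 135 (1.25). A further intragenic site, chr11:102215417-102217796, lost MITF, TFAP2A and SOX10 peaks and had 41 and 24 reads of H3K27ac (0.557).

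**Figure D3:**
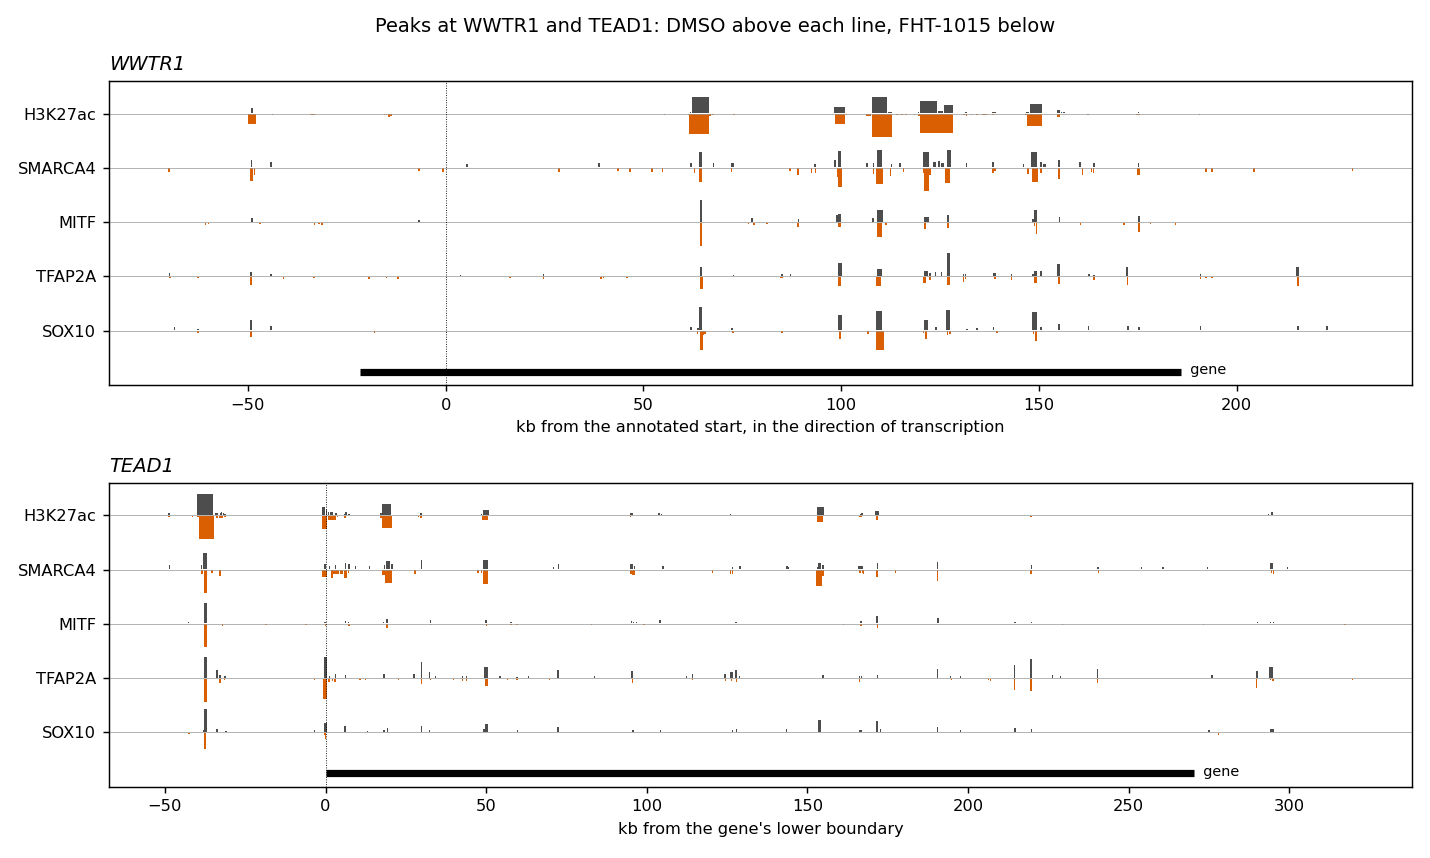
Peaks along WWTR1 (distance in kb from the upper annotated start) and TEAD1 (distance in kb from the lower gene boundary), with DMSO in grey above and FHT-1015 in orange below each line, bar height proportional to depth-scaled summit reads within each antibody and locus. At WWTR1 the H3K27ac domains stand on both sides of their lines, and at TEAD1 the SOX10 bars inside the gene are in DMSO, with 25 peaks overlapping the gene there and 1 in FHT-1015.

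TEAD1 is the longest member, at chr11:12674421-12944737, and no other coding gene lies in its window. SOX10 had 25 peaks overlapping the gene in DMSO and 1 in FHT-1015. Only 2 of the 33 SOX10 peaks of the locus were retained (6.06%). Of the 12 strong SOX10 peaks 2 were retained. The retained peaks were at the lower gene boundary, chr11:12673372-12674902, with 59 reads in DMSO and 46 in FHT-1015 (0.681), and 35.0 kb below it at chr11:12634517-12639430, with 157 and 127 (0.706). This second site had peaks of all 5 antibodies in both conditions: H3K27ac had 240 and 272 reads (1.08), MITF 235 and 223 (1.11), TFAP2A 164 and 171 (1.09) and SMARCA4 65 and 84 (1.41). At the lower boundary H3K27ac had 88 and 151 (1.63) and TFAP2A 162 and 153 (0.984).

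The other 7 TEAD1 sites that all 5 antibodies shared in DMSO had no SOX10 peak in FHT-1015. At chr11:12845495-12846594 SOX10 had 73 reads in DMSO and no peak in FHT-1015, TFAP2A 19 and no peak, and MITF 88 and 32 (0.426). H3K27ac there had 39 and 46 (1.12) and SMARCA4 25 and 27 (1.18). At chr11:12968193-12969473, 23.5 kb above the upper boundary, the TFAP2A peak had 82 reads in DMSO and 14 in FHT-1015 (0.178) and the H3K27ac peak of 36 reads was lost. The TFAP2A summits there lay 759 bp apart. The strongest TFAP2A peak lost at any member, chr11:12746596-12746996, lay inside TEAD1, with 63 reads and a −log10 p of 46.8. The strongest SMARCA4 peak lost at any member, chr11:12704085-12704544, also lay there, with 37 reads. H3K27ac at TEAD1 covered 23807 bp in DMSO and 23396 bp in FHT-1015.

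TEAD4, at chr12:2959397-3040676, had the lowest H3K27ac length ratio among members with at least 5 peaks, with 10281 bp in DMSO and 5765 bp in FHT-1015 (0.561). The H3K27ac peak at the lower boundary of the gene covered 3070 bp in DMSO and 2623 bp in FHT-1015, and the rest of the locus 7211 and 3142 bp (0.436). The site chr12:3053182-3056967, 12.5 kb above the upper boundary, held the strongest H3K27ac peak of the locus with 241 reads in DMSO and 128 in FHT-1015 (0.506). MITF at that site had 195 and 46 (0.276), SOX10 had 62 and no peak, TFAP2A 36 and no peak, and SMARCA4 45 and 36 (0.872). A neighbouring site, chr12:3064560-3066691, lost its peaks of H3K27ac (72 reads), MITF (82), TFAP2A (44) and SMARCA4 (25). These were the strongest H3K27ac peak and the strongest MITF peak lost at any of the 10 loci. SOX10 at that second site had 23 reads in DMSO, and a FHT-1015 peak with 19 reads touched its edge without overlapping the DMSO SOX10 peak. At the lower boundary, chr12:2957702-2961185, H3K27ac had 149 and 162 reads (1.04), SMARCA4 30 and 47 (1.71) and SOX10 49 and 21 (0.374). TULP3 and TSPAN9 share the window, so the sites above the gene cannot be assigned to TEAD4 by position.

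TEAD2 and TEAD3 are short genes in windows with 4 other coding genes each, so a peak outside the gene need not belong to it. TEAD2, at chr19:49340595-49362416, had 5 H3K27ac peaks in DMSO and 6 in FHT-1015, with 0.973 of the covered length. At its start H3K27ac had 116 reads in DMSO and 190 in FHT-1015 (1.56) and TFAP2A 119 and 113 (0.990), with summits 870 bp apart. The SOX10 start peaks with the highest −log10 p, with 39 reads in DMSO and 21 in FHT-1015, did not overlap. Taken by summit reads, SOX10 peaks of 39 and 21 reads at this site did overlap, with summits 66 bp apart (0.470). The strongest TFAP2A peak found only in FHT-1015 at any member, chr19:49347599-49348072, lay inside TEAD2 with 31 reads. The TEAD3 locus, with the gene at chr6:35473597-35497079, retained all 6 of its H3K27ac peaks and 7 of its 11 SOX10 peaks. Only 1 of these 6 and 1 of these 11 overlapped the gene itself in DMSO, and in FHT-1015 no SOX10 peak did. At the TEAD3 start SMARCA4 had 50 reads in DMSO and 78 in FHT-1015 (1.70), H3K27ac 129 and 145 (1.07), TFAP2A 123 and 94 (0.796) and SOX10 38 and 18 (0.414). The TFAP2A summits lay 1.58 kb from the start in DMSO and 1.47 kb in FHT-1015. The site just below the gene, chr6:35467759-35472974, had 196 and 247 reads of H3K27ac (1.20) and 110 and 61 of SOX10 (0.484). These peaks lie at the gene RPL10A, so they cannot be assigned to TEAD3 by position.

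CCN2 encodes a secreted matricellular protein also called CTGF and lies at chr6:131948176-131951372 with no other coding gene in its window. Its start was the 1 site of the locus with all 5 antibodies in DMSO, and it covers the printed promoter with the 3 GGAATG copies. TFAP2A had 161 summit reads there in DMSO and 45 in FHT-1015, a height ratio of 0.291. Of 10504 coding genes with an annotated start and a TFAP2A start peak in both conditions, 0.771% were at or below this ratio, and their median was 1.09. The SOX10 peak of 54 reads and the MITF peak of 19 reads had no FHT-1015 counterpart. SMARCA4 at the same start had 45 and 42 reads (1.02) and H3K27ac 46 and 40 (0.828), with H3K27ac summits 644 bp apart. Across the locus H3K27ac covered 4307 bp in DMSO and 1866 bp in FHT-1015, and SMARCA4 2749 bp and 2768 bp. The strongest MITF peak found only in FHT-1015 at any member, chr6:131914969-131915284, lay below CCN2 in its window, with 15 reads.

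AMOTL2, at chr3:134355345-134375417, was covered in DMSO by 1 H3K27ac peak of 19472 bp, chr3:134356240-134375711, which ranked 12 by width among all 68029 H3K27ac peaks. In FHT-1015 7 peaks lay over it and covered 93.8% of it. The widest had 7276 bp, so the larger number of H3K27ac peaks at AMOTL2 (7 in DMSO and 11 in FHT-1015) came with a smaller covered length (25049 and 21593 bp). Inside this domain the strongest SOX10 peak had 130 reads in DMSO and 49 in FHT-1015 (0.329), the strongest TFAP2A peak 196 and 115 (0.611) and the strongest MITF peak 128 and 70 (0.640). The strongest SOX10 peak lost at any member, chr3:134363918-134364550, had 88 reads and also lay inside the domain. At the AMOTL2 start the strongest TFAP2A peak had 179 reads in DMSO and 70 in FHT-1015, but these peaks did not overlap and their summits were 788 bp apart. SOX10 there had 70 and 22 (0.274) and MITF 35 and 16 (0.535), while SMARCA4 had 25 and 56 (2.44). The SMARCA4 summits lay 695 bp apart, so this ratio compares different positions. SMARCA4 covered 10310 bp of the locus in DMSO and 15552 bp in FHT-1015, the largest ratio among the members (1.51), and 17.2% of loci were at or above it.

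**Figure D4:**
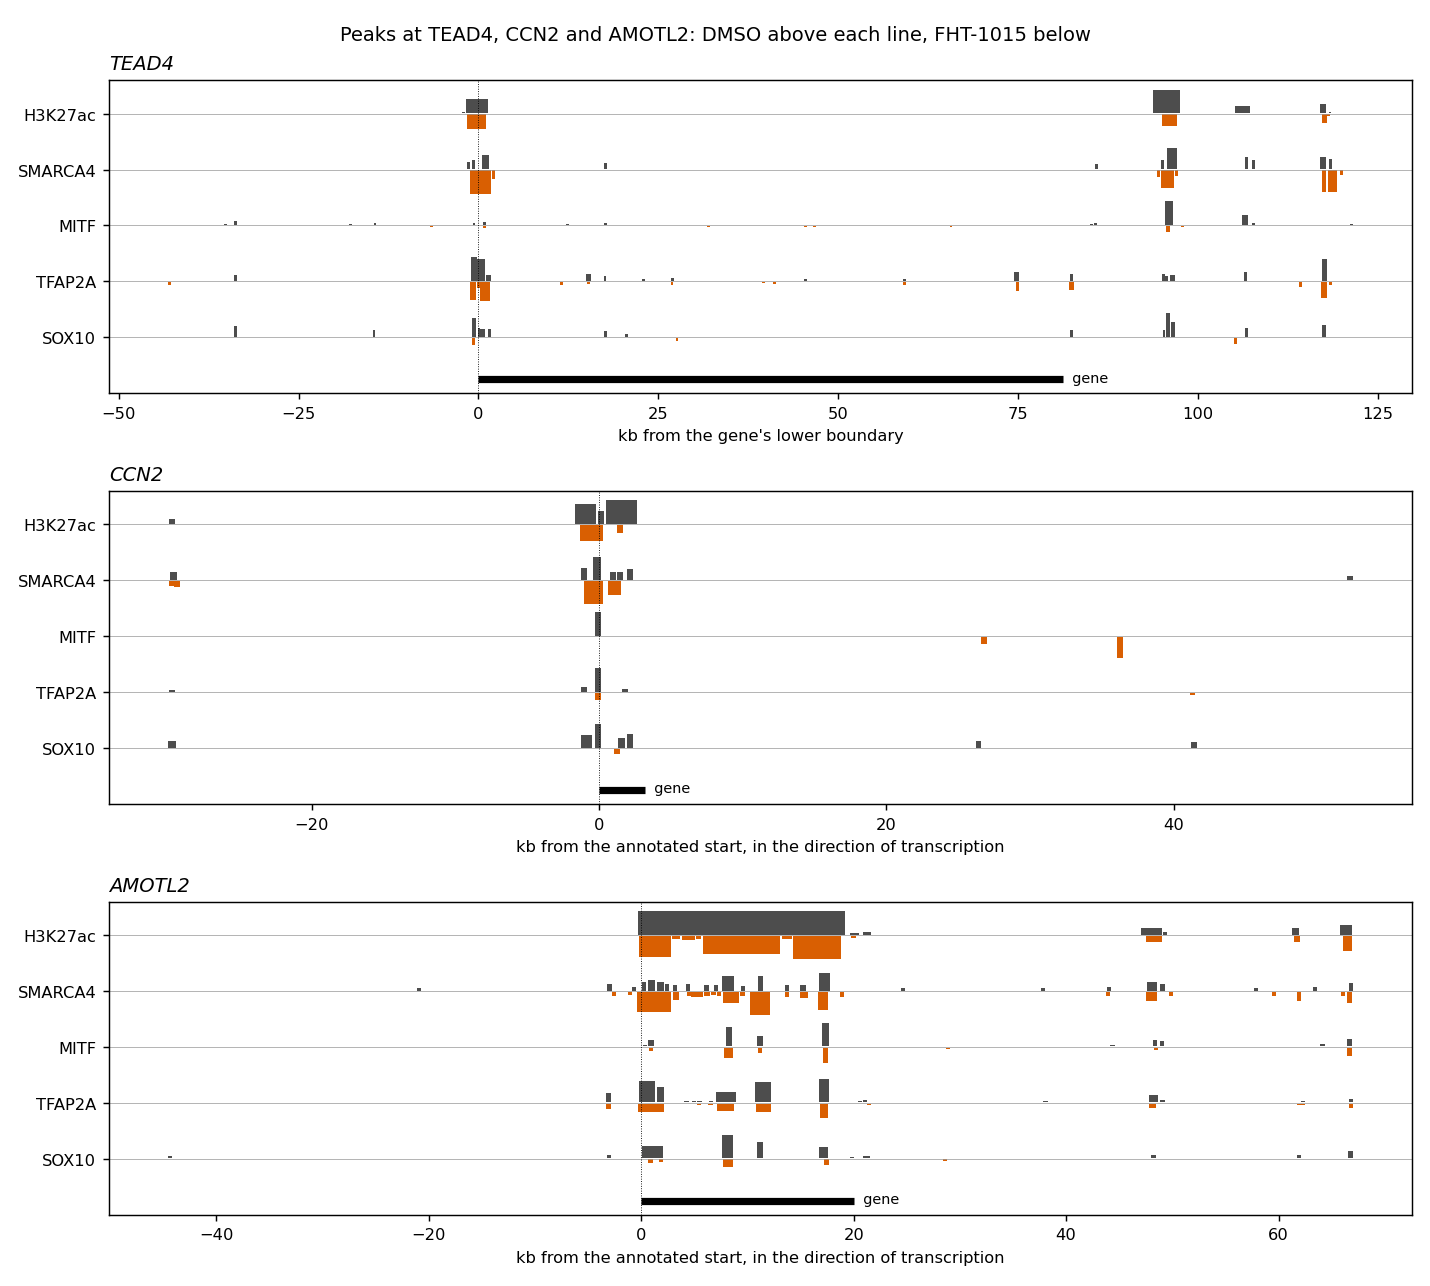
Peaks along TEAD4 (kb from the lower gene boundary), CCN2 and AMOTL2 (kb from the annotated start, the upper one at AMOTL2), with DMSO in grey above and FHT-1015 in orange below each line, bar height proportional to depth-scaled summit reads within each antibody and locus. The H3K27ac and MITF bars above TEAD4 are lower or missing in FHT-1015, the TFAP2A bar at the CCN2 start is shorter (161 and 45 summit reads), and the AMOTL2 H3K27ac domain appears as 7 pieces.

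LATS2 encodes a kinase that inhibits YAP and lies at chr13:20973036-21061586. Its start showed a gain of H3K27ac and SMARCA4 while SOX10 was lower. H3K27ac had 118 reads in DMSO and 204 in FHT-1015 (1.65), SMARCA4 44 and 84 (2.08), MITF 130 and 103 (0.927), TFAP2A 166 and 138 (0.866) and SOX10 69 and 32 (0.405). Such gains at starts were common, since the median height ratio over all coding genes with an annotated start and start peaks in both conditions was 1.38 for H3K27ac and 1.46 for SMARCA4. Away from the start LATS2 had less H3K27ac in FHT-1015. Of the 7 other peaks 3 were retained, and they covered 5158 bp in DMSO and 2112 bp in FHT-1015 (0.409), while the start peak covered 2804 and 2890 bp.

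CCN1, which encodes the secreted protein also called CYR61, lies at chr1:85580761-85583950. Its SOX10 peaks numbered 4 in DMSO and 8 in FHT-1015, but the covered length was 3604 and 2220 bp and the number of strong peaks 3 and 0. At chr1:85584102-85585040, just above the gene, SOX10 had 70 reads in DMSO and 25 in FHT-1015 (0.312) and the MITF peak of 35 reads was lost. At the lower boundary, chr1:85580072-85582476, H3K27ac had 134 and 136 reads (0.967), TFAP2A 93 and 81 (0.908) and SOX10 31 and 20 (0.563). The SOX10 summits there lay 599 bp apart. H3K27ac at CCN1 covered 4736 bp in DMSO and 4794 bp in FHT-1015. DDAH1 shares its window.

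At the starts the 5 antibodies were found together. In DMSO 9 of the 10 members had a peak of each antibody within 1 kb of an annotated start, or of either gene boundary for CCN1, TEAD1 and TEAD4. The shares of all coding genes with such a peak were 68.4% for TFAP2A, 63.2% for SOX10, 58.5% for SMARCA4, 57.9% for H3K27ac and 46.1% for MITF. In FHT-1015, 9 members had an H3K27ac start peak, 10 a SMARCA4 and 10 a TFAP2A peak, and 8 a MITF and 8 a SOX10 peak, against 57.7%, 63.6%, 68.6%, 43.9% and 40.5% of genes. The member added for SMARCA4 and TFAP2A was WWTR1, with weak peaks of 8 and 6 reads (−log10 p 4.02 and 2.86). CCN2 was the member that lost both its MITF and its SOX10 start peak. Heights at the start were compared for genes with an annotated start. The first comparison took the start peak with the highest −log10 p in each condition, wherever its summit lay. So measured, members were lower in FHT-1015 at 5 of 5 for SOX10 (98% of genes), 5 of 6 for TFAP2A (38.2%), 3 of 5 for MITF (44.1%), 2 of 6 for H3K27ac (9.29%) and 1 of 6 for SMARCA4 (12.5%). With overlapping peaks whose summits both lay within 1 kb of a start, a choice made after seeing the data, they were lower at 3 of 3 for SOX10 (98.9% of genes), 3 of 4 for TFAP2A (36.8%), 3 of 5 for MITF (42.8%), 1 of 5 for H3K27ac (7.37%) and 1 of 5 for SMARCA4 (10%). The 1 member lower in H3K27ac was then CCN2. AMOTL2 left that count because the summit of its H3K27ac domain lay 16.7 kb from the start in DMSO, and the domain's strongest peak had 169 reads in DMSO and 180 in FHT-1015 (1.01).

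Peaks of the 5 antibodies merged into 279 sites at the 10 loci in DMSO and 303 in FHT-1015. In DMSO 38 sites had all 5 antibodies and 174 had 1. In FHT-1015 21 sites had all 5 and 218 had 1. The 38 sites were at TEAD1 (9), WWTR1 (8), YAP1 (5), TEAD3, TEAD4, CCN1 and AMOTL2 (3 each), TEAD2 (2), CCN2 and LATS2 (1 each). After FHT-1015 a SMARCA4 peak was still present at 37 of the 38, H3K27ac at 36, TFAP2A at 32, MITF at 27 and SOX10 at 23. The sites were picked for having all 5 antibodies in DMSO, and no share over such sites of the genome is given here. Heights at these sites are those of the peak with the most summit reads in each condition, called the strongest in this paragraph. Where SOX10 remained it was lower at 23 of 23, with a median height ratio of 0.518. H3K27ac was higher at 27 of 36 (median 1.14) and SMARCA4 at 27 of 37 (median 1.30), while MITF was higher at 12 of 27 (median 0.948) and TFAP2A at 14 of 32 (median 0.946). The 27 for H3K27ac include the WWTR1 site chr3:149575003-149578810, where the FHT-1015 summit lay outside the site. At 21 of the 23 SOX10 sites the strongest peaks of both conditions overlapped, and SOX10 was lower at 21 of 21 with the same median of 0.518. The 38 sites were not filtered for strength, and no median over like sites of the genome is given. Over all retained peaks of the whole lists the median was 0.592 for SOX10, 1.21 for H3K27ac and 1.17 for SMARCA4. For MITF it was 0.836 and for TFAP2A 0.938. Among strong peaks alone these medians were, in that order, 0.512, 1.18, 0.968, 0.624 and 0.733. Strong retained peaks of the 10 loci had 0.502, 1.13, 1.23, 0.757 and 0.831. The TEAD4 site at chr12:3064560-3066691 was the 1 of the 38 that lost SMARCA4.

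**Figure D5:**
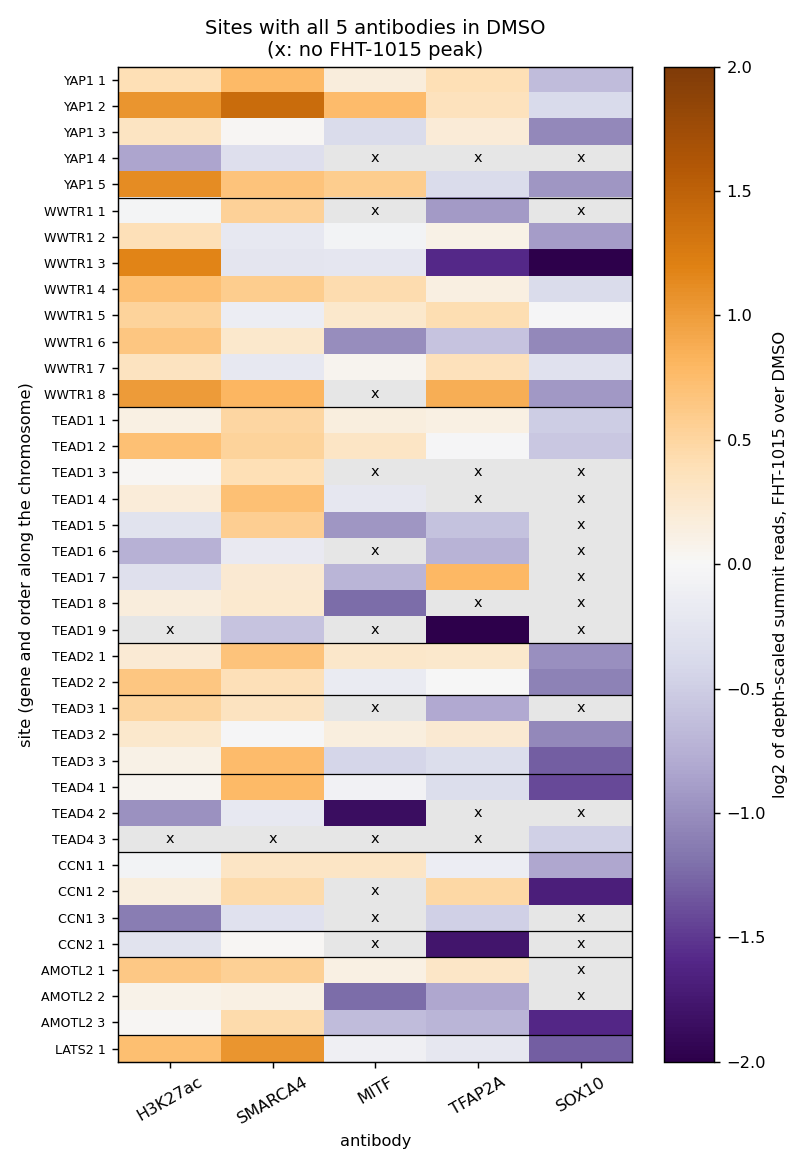
Each row is 1 of the 38 sites with peaks of all 5 antibodies in DMSO, ordered by gene and position along the chromosome, and each column an antibody. Colour gives log2 of the depth-scaled summit reads in FHT-1015 over DMSO, and an x marks a site without an FHT-1015 peak: SOX10 is lower or absent in every row, and SMARCA4 is absent in 1.

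Over all retained peaks of the 10 loci the antibodies stood in the same order as at the sites shared by all 5. The median height ratio was 1.32 for SMARCA4 (1.17 over all retained peaks of the list), 1.26 for H3K27ac (1.21) and 0.957 for MITF (0.836). TFAP2A had 0.906 (0.938) and SOX10 0.630 (0.592). SOX10 was lower at 34 of its 38 retained peaks, against 89.1% of all. SOX10 peaks that overlapped a SMARCA4 peak in DMSO were retained at 33 of 88 (37.5%, 28.1 to 47.9), and those without at 5 of 48 (10.4%, 4.53 to 22.2), against 24.7% and 10.4% in the whole list. The SOX10 peaks with SMARCA4 were also stronger, with a median −log10 p of 12.6 against 5.50, and the part of peak strength in this split was not tested. The split was not particular to SOX10. With and without SMARCA4, 89.6% and 50% of H3K27ac peaks at the loci were retained (72.0% and 39.7% in the whole list). For MITF it was 55.9% and 23.3% (49.7% and 24.8%), and for TFAP2A 69.3% and 51.8% (65.1% and 48.6%).

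The rest of the pathway was counted on lists taken from textbook knowledge. Among 17 further YAP target genes SOX10 was halved at 13 of the 15 with at least 5 DMSO peaks, against 73.7% of all loci, and the list went from 239 peaks to 45, with a median ratio of 0.182 against 0.333 over all loci. NUAK2, a kinase of the AMPK family, went from 15 SOX10 peaks to 0. NT5E, which encodes the ectonucleotidase CD73, had 8 and 0, and RBMS3, an RNA-binding protein, 24 and 2. H3K27ac was halved at 5 of 14 of these genes, against 23.5% of loci, with NT5E at 6 and 1, NUAK2 at 8 and 3 and FJX1 at 5 and 2. MITF was halved at 4 of 14 (NT5E from 7 to 1, GADD45A from 6 to 2, NUAK2 from 7 to 3), against 14.6% of loci. TFAP2A was halved at 3 of 17 (TGFB2 from 21 to 6, CRIM1 from 25 to 8, GADD45A from 12 to 6), against 10%, and SMARCA4 at 0 of 14, against 8.55%.

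Among 16 upstream regulators SOX10 was halved at 14 of 16, against 73.7% of all loci, with SAV1, the scaffold of the MST kinases, at 6 and 1, WWC1 (KIBRA) at 14 and 3 and PTPN14, a phosphatase that binds YAP, at 17 and 4. The median SOX10 number ratio of this list, 0.333, and its median retained share, 21.4%, were the same as over all loci. H3K27ac was halved at 5 of 16, against 23.5%, among them AMOTL1, an angiomotin family member, from 16 to 6, PTPN14 from 8 to 3 and SAV1 from 8 to 3. TFAP2A was halved at 4 of 16 (SAV1 from 6 to 1, AMOT from 12 to 3, AMOTL1 from 16 to 5), against 10%. SMARCA4 was halved at 2 of 16 (PTPN14 from 16 to 7, SAV1 from 12 to 6), against 8.55%, and MITF at AMOTL1 alone, from 21 to 5, against 14.6%. PTPN14 and SAV1 kept 0.743 and 0.928 of their SMARCA4 covered length. Of the 33 genes of both lists, none with at least 5 DMSO peaks of an antibody was doubled in its peak number. SMARCA4 covered length was doubled at NF2, which encodes merlin, from 2411 to 7232 bp, against 3.97% of loci. H3K27ac, halved at none of the 9 members tested, was halved at 10 of the 30 other pathway loci tested and at 23.5% of all loci, and the difference between the lists was not tested.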

How the data were processed

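ChIP-seq peak lists of 10 libraries were used, 10 narrow and, for H3K27ac and SMARCA4, 4 broad. Per the submitters' processing notes, BWA, SAMtools, Picard and MACS2 were used with build hg38, and no versions are given in the sources used here. The deposited columns hold a fold ratio over background, −log10 of p, −log10 of q and an integer score, which in the narrow lists is 10 times −log10 p. Peaks were called per library, so peak number follows library depth.

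Peaks on 24 chromosomes were assigned to RefSeq genes (GRCh38.p14) with 50 kb either side, in Python 3.11.15 with pandas 2.3.3, numpy 2.4.6 and scipy 1.17.1. Whole summit reads were recovered from the deposited fold ratio and −log10 p for all 10 narrow lists, after seeing the data. Depth relative to the input was recovered from the lowest background and the shortest peak, except for SOX10 in FHT-1015. That list fitted reads scaled down by a factor of 0.8896, and its depth was taken as 1 over this factor. Its background set the unit for the other lists. Fragment extension differs slightly between libraries. A locus with at least 5 DMSO peaks was halved at a ratio of 0.5 or less and doubled at 2 or more. Counting was tested on simulated data.

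The members and lists were chosen with earlier results of these data known. Named peaks are the start peaks, the strongest DMSO peak per member and antibody, the strongest lost and FHT-1015-only peak over the 10 loci, and the sites shared by all 5 antibodies. Other pathway genes named are at most 3 per list, antibody and direction with the most extreme ratio. Alternatives covered peak thresholds, window, peak shape and overlap. Exons and introns were not analysed here.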

Additional observations from a re-analysis of the deposited data

How the results depend on the processing

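No paired analysis was possible because each antibody and condition had 1 library, which also means that no library could be left out. The total of H3K27ac peaks at the 10 loci, 1.04 times that in DMSO, turned to 0.964 among peaks with −log10 p of at least 10, to 0.990 with q under 0.05, to 0.987 in the broad lists and to 0.826 without WWTR1, an alternative chosen after seeing the data. The H3K27ac covered length turned from 0.987 to 1.02 in the gene bodies alone. The SMARCA4 peak number turned from 0.902 to 1.42 with −log10 p of at least 10, and its covered length went from 1.18 to 1.87. The same threshold lowered the number ratio to 0.605 for MITF, 0.731 for TFAP2A and 0.236 for SOX10, for which q under 0.05 gave 0.333. The retained share with that threshold in both lists was 89.3% for H3K27ac and 87.1% for SMARCA4. For DMSO peaks past that threshold set against every FHT-1015 peak it was 96.8% for SMARCA4, 94.6% for H3K27ac, 77.4% for TFAP2A, 74.4% for MITF and 49.1% for SOX10. Summits within 200 bp gave 49.5% for H3K27ac and 39.9% for SMARCA4. Cover of at least 50% of the DMSO peak gave 34.2% for MITF and 19.9% for SOX10, and gene bodies gave 55.2% for MITF.

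The doubling of H3K27ac at WWTR1 was lost, with 0 members doubled, under −log10 p of at least 10, q under 0.05, gene bodies and 100 kb either side, and 100 kb gave 1 halved member. SMARCA4 had 1 halved member with q under 0.05 and 1 in gene bodies. MITF had 3 with q under 0.05 and 0 with 100 kb. TFAP2A had 2 with −log10 p of at least 10 and 1 with 100 kb. SOX10 had 2, of 6 tested, in gene bodies. With −log10 p of at least 10, MITF start peaks remained at 4 members in DMSO and 3 in FHT-1015, and SOX10 start peaks at 2 in FHT-1015. With overlapping start peaks whose summits both lay within 1 kb of a start, chosen after seeing the data, 1 member in place of 2 was lower in H3K27ac height, and 3 in place of 5 in TFAP2A as in SOX10, since fewer members could be compared. The other 125 alternative values stayed within counting error or within 1.5 times. For single loci, 132 of 146 did so and none of those called halved or doubled changed direction. Weak peaks limit these counts: 57.9% of SOX10 peaks in FHT-1015 had q under 0.05, against 92.3% in DMSO. For MITF the shares were 61.1% and 89.7%.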
